A study of Arabidopsis thaliana with 8 samples.

Results

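The effect of rh10-1 at 22°C was read from 4 of the 8 ATH1 GeneChip arrays of the series, with 1 array each of the wild type Col-0, the single mutants as2-1 and rh10-1, and the double mutant as2-1 rh10-1. The arrays with rh10-1 were each set against the array of the same AS2 background without it, which gave the ratio of rh10-1 over Col-0 and that of as2-1 rh10-1 over as2-1. These 2 pairs share no array. All 4 samples were shoot apices with leaf primordia of Arabidopsis thaliana plants, grown for 15 days under long days. The other 4 arrays held the same genotypes at 26°C. The as2-1 line had been outcrossed to Col-0, and rh10-1 is a recessive, temperature-sensitive missense allele that was found among mutagenized as2-1 seeds. With 1 array per genotype there was no replicate within a genotype, so the spread between the 2 pairs was the only error available, and precision is limited by the number of arrays. Where 4 signals of a gene follow each other, they are in the order Col-0, as2-1, rh10-1, double mutant. Where 2 signals stand against 2, they are Col-0 and as2-1 against rh10-1 and the double mutant.

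RH10 is a DEAD-box RNA helicase of the nucleolus, the compartment where the precursor of the ribosomal RNAs is transcribed by RNA polymerase I, cut and assembled with ribosomal proteins. DEAD-box helicases use ATP to open RNA duplexes or to displace proteins from RNA, and many of them act in ribosome assembly. AS2 forms a complex with AS1 that represses genes of the abaxial (lower) leaf side during early leaf development. The comparison asks which transcripts differed with rh10-1 whether or not AS2 was functional.

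Signals on a linear scale were available for 22746 probe sets, and 13074 genes could be named by a probe set that matched 1 gene. The array medians at 22°C were 69.7 to 76.5, and Spearman's rho between the 4 arrays was 0.953 to 0.968 across probe sets, which are not independent replicates. A gene was kept when it exceeded the 40th percentile of the array on at least 1 of the 4 arrays, and 7943 genes were. Most genes carry only an AGI code in the tables used here, and such genes are given without a role. In whole apices, fewer cells of a type and less RNA per cell cannot be told apart. Of 10 shoot meristem markers only CLV3 could be named, so the tissue label could hardly be checked, and its signals were 2.5 in Col-0 against 3.3 in rh10-1 and 15.4 in as2-1 against 26.8 in the double mutant, under the 40th percentile on every array. The primordium genes YAB3 and PHV were measured on all arrays, with signals of 443.5 to 508.1 and of 293.1 to 494.2. The root hair genes EXPA7 and EXPA18 and the anther gene AMS stayed under the 40th percentile. The summed signal of the 3 stomatal lineage markers (SPCH, MUTE and FMA) was 229.5 and 205.1 without rh10-1 against 183.7 and 163.1 with it, and that of the single epidermis marker, CR4, was 120.2 and 94.4 against 80.5 and 76.8. The trichome gene TRY, under the 40th percentile on all arrays, had 29.3 and 36.2 against 24.2 and 21.8. The stomatal sum and the signals of CR4 and TRY were lower with rh10-1 in both pairs, as were 32.5% of all genes kept. CR4 and TRY were the only members of lists of 11 and 9 that could be named. However, the stomatal gene FMA had a log2 ratio of 0.57 in the as2-1 pair. The part of these markers in the results below was not tested.

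Of the 7943 genes, 56 were measured at 2-fold or more higher with rh10-1 in both pairs (0.705%) and 38 at 2-fold or more lower in both (0.478%). Another 21 genes (0.264%) passed 2-fold in opposite directions, 7 of them (0.0881%) higher in the Col-0 background and 14 (0.176%) higher in the as2-1 background. Each pair alone gave more genes. In the Col-0 background 345 genes (4.34%) were higher and 363 (4.57%) lower, and in the as2-1 background 172 (2.17%) were higher and 124 (1.56%) lower. The SD of the log2 ratios over genes was 0.664 in the Col-0 pair and 0.491 in the as2-1 pair, with medians of -0.06 and 0.02. The log2 ratios of the pairs had a Pearson's r of 0.339 and a Spearman's rho of 0.339 across the 7943 genes, which are not independent replicates. Among the 5334 genes above the array median on all 4 arrays, Pearson's r was 0.415.

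**Figure D1:**
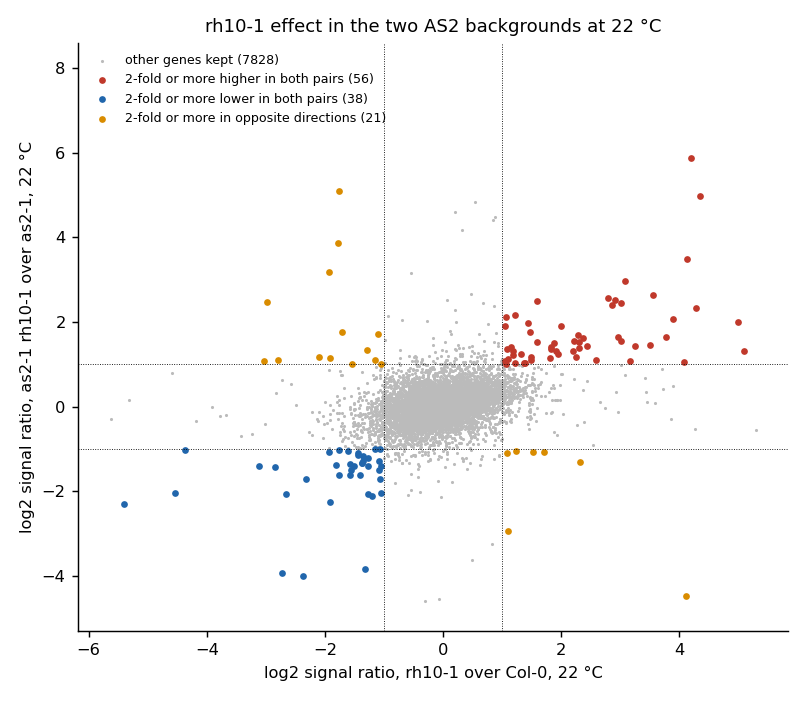
Log2 signal ratio of rh10-1 over Col-0 (x axis) against that of as2-1 rh10-1 over as2-1 (y axis) at 22°C, 1 point per gene, for the 7943 genes kept, with dotted lines at 2-fold. Red points are the 56 genes higher in both pairs, blue the 38 lower in both and orange the 21 in opposite directions, and the cloud is wider along the x axis (SD 0.664) than along the y axis (SD 0.491).

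Many of these genes had low signals on the arrays where they were lower. Of the 56 higher genes, 34 passed the 40th percentile on neither array without rh10-1, and of the 38 lower genes, 30 passed it on neither array with rh10-1, so that they entered only through the arrays on which they were high. The genes ranked below had to exceed the 20th percentile on all 4 arrays and the median on at least 1, which 32 of the 56 and 13 of the 38 did. Close to the 2-fold line, the smaller of the 2 log2 ratios was 1.01 for AT5G60800 and 1.02 for AT4G16630 just inside, and 0.99 for both AT1G49500 and AT1G61100 just outside. On the lower side it was -1.0028 for AT2G26360 and -1.01 for SUFE2 inside, and -0.9976 for AT1G30640 and -0.99 for AT5G66330 outside.

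Among the genes that met the signal conditions, the one with the largest ratio shared by both pairs was AT5G60250, whose signal was 24.4 in Col-0 against 205.5 in rh10-1 and 19.4 in as2-1 against 152.3 in the double mutant. Its log2 ratio was 3.02 ± 0.07 (mean ± SD, n = 2 pairs). AT5G08600 had signals of 31.6 and 27.9 without rh10-1 and of 218.9 and 166.2 with it, a log2 ratio of 2.68 ± 0.15. AT2G03130 rose from 22.7 in Col-0 to 171.5 in rh10-1 and from 24.8 in as2-1 to 141.8 in as2-1 rh10-1. In these 3 genes both rh10-1 arrays stood far above both others, and the as2-1 array was close to the Col-0 array. AT1G24095 had 19.0 in Col-0 against 137.7 in rh10-1 and 28 in as2-1 against 146.6 in the double mutant. AT1G67760 had 36.3, 37.9, 179.7 and 109.8, and AT2G18190 had 21.6, 17.8, 100.2 and 52.3. In both, the ratio was larger in the Col-0 background than in the as2-1 background.

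AT2G40010 was measured at 159.8 in Col-0 against 828.4 in rh10-1 and 234.0 in as2-1 against 717.2 in the double mutant, and its log2 ratio was 2.0 ± 0.54 (n = 2 pairs). AT5G46710 had signals of 67.2, 104.3, 247.4 and 296.0. BZIP61, a bZIP transcription factor, had 65.0 in Col-0 against 196.2 in rh10-1 and 50.7 in as2-1 against 146.9 in the double mutant, and its log2 ratios of 1.59 and 1.53 were nearly equal. ATPMEPCRB, a pectin methylesterase that acts on the pectin of the cell wall, had 56.4 and 62.9 without rh10-1 and 156.5 and 213.6 with it. In all of these the arms with and without rh10-1 did not overlap. AT5G19120 had 42.7 in Col-0 against 331.9 in rh10-1 and 271.5 in as2-1 against 853.6 in the double mutant, so that its as2-1 signal lay closer to that of rh10-1 than to that of Col-0. AT3G15357 had 15.5 in Col-0 against 147.4 in rh10-1 and 51.2 in as2-1 against 139.1 in the double mutant. Over the 56 genes, both rh10-1 arrays were above both other arrays in 51 (23.0% of all genes kept), an order that the choice of these genes nearly fixes. The Col-0 pair had the larger log2 ratio in 42 of the 56, and over all genes kept its ratio was the larger in size in 63.1%.

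Besides BZIP61 and ATPMEPCRB, 5 of the 56 carry a symbol and are named here for it, after their values were seen. EXO, a brassinosteroid-responsive gene linked to leaf growth, had 546.5 in Col-0 against 3286.0 in rh10-1 and 1436.3 in as2-1 against 3073.5 in the double mutant, so that the ratio was larger in the Col-0 background (log2 2.59) than in the as2-1 background (1.1). EXLA1, XTH18, XTH19 and AGL19 were under the 40th percentile on both arrays without rh10-1. EXLA1, an expansin-like gene of the cell wall, had 4.0 in Col-0 against 70.1 in rh10-1 and 11 in as2-1 against 123.3 in the double mutant. XTH18 and XTH19 encode xyloglucan endotransglucosylase/hydrolases. XTH18 had 13.2, 1.2, 52.8 and 4.5, and so its double mutant signal lay under that of Col-0, while XTH19 had 1.6, 9.5, 51.2 and 38.2. AGL19, a MADS-box gene known for its part in flowering, had 16.6 and 18.4 without rh10-1 and 35.3 and 47.5 with it.

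**Figure D2:**
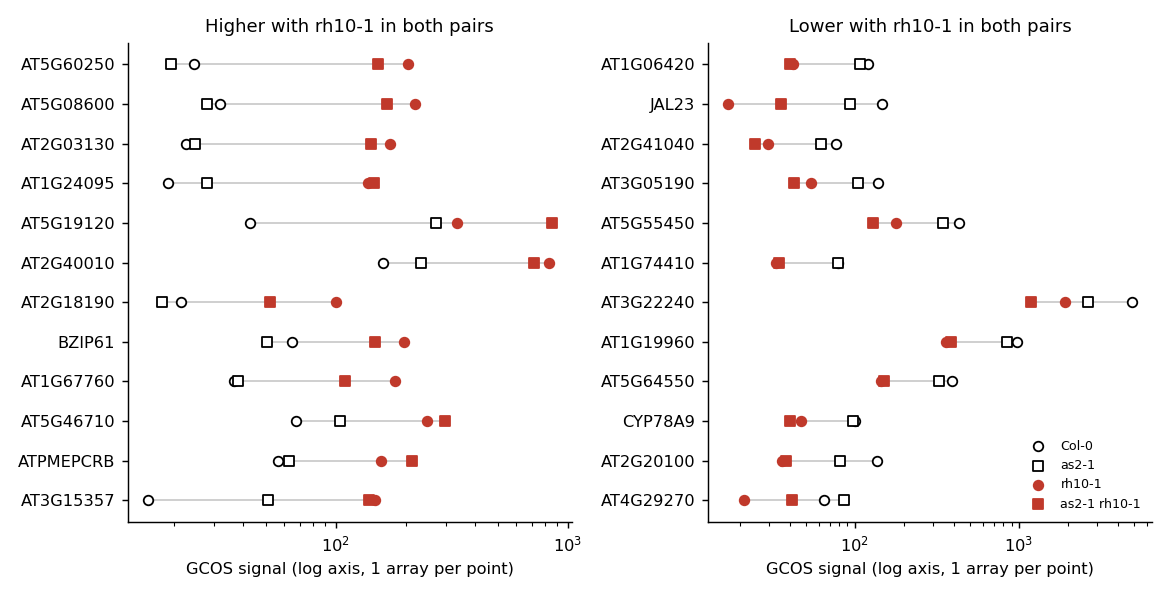
GCOS signals (x axis, log scale) of the 12 higher and the 12 lower genes with the largest 2-fold or greater change shared by both pairs, 1 point per array. Filled red symbols (rh10-1 and as2-1 rh10-1) lie to the right of the open symbols of the same shape in the left panel and to the left of them in the right panel, and in AT5G19120 the as2-1 signal of 271.5 is close to the rh10-1 signal of 331.9.

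The ratios of the lower genes were smaller in size. AT1G06420, the first by the same ranking, had 119.4 in Col-0 against 42.2 in rh10-1 and 107.2 in as2-1 against 40.2 in the double mutant, and its log2 ratio was -1.46 ± 0.06 (mean ± SD, n = 2 pairs). JAL23, a jacalin-related lectin of a family of carbohydrate-binding proteins, had 146.8 in Col-0 against 16.9 in rh10-1 and 93.4 in as2-1 against 35.4 in the double mutant, with log2 ratios of -3.12 and -1.40. AT5G55450 had 429.1 and 342.5 without rh10-1 and 177.0 and 129.5 with it. AT3G22240 had 4899.8 in Col-0 against 1913.4 in rh10-1 and 2648.7 in as2-1 against 1175.9 in the double mutant. AT1G19960 had 976.2 and 846.9 against 360.2 and 384.9, and AT5G64550 had 391.2 and 324.8 against 144.0 and 150.9. CYP78A9, a cytochrome P450 that promotes organ growth, had 99.9 and 97.3 without rh10-1 and 47.1 and 40.2 with it.

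The signals of AT3G05190 were 139.0 in Col-0 against 54.1 in rh10-1 and 104.8 in as2-1 against 42.8 in the double mutant. Those of AT2G20100 were 137.0, 80.5, 36.0 and 38.1, and those of AT4G29270 were 65.1, 85.2, 21.2 and 41.1. AT2G41040 had 76.9, 62.4, 29.6 and 24.6, and AT1G74410 had 79.1, 79.1, 32.8 and 34.3. In each of these the rh10-1 arrays were both below the others. Over the 38 lower genes this order, which their choice nearly fixes, held in 36 (25.0% of all genes kept).

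In a limma fit of the 4 arrays with the AS2 background as the pairing term, 223 of 7943 genes (2.81%) were called higher with rh10-1 and 159 (2.0%) lower at a Benjamini-Hochberg adjusted p under 0.05. The residual of this fit is the difference of the rh10-1 effect between the 2 backgrounds, with 1 degree of freedom, and the prior degrees of freedom were estimated as infinite, so that these p-values rest on the size of the effect and the mean signal and not on the gene's own agreement between the pairs. Of the 56 genes higher in both pairs 37 were called, and of the 38 lower genes 15, on the same ratios that chose them. The counts fell to 50 higher and 35 lower without the intensity trend, to 25 and 10 without the background term and to 21 and 4 with all 8 arrays. A 2-sided exact permutation test of 2 arrays against 2 cannot go below p = 0.333, and so none is given.

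The 16 genes called in all 4 of these limma fits passed 2-fold in both pairs. The 14 higher ones (0.176% of all genes) were AT5G60250, AT2G03130, AT5G08600, AT1G24095, AT2G40010, AT1G67760, EXO, AT5G59240, AT5G39850, AT5G46710, AT2G30930, AT3G46600, AT3G12860 and AT1G23410, with mean log2 ratios of 1.33 to 3.02. The 2 lower ones (0.0252%) were AT1G19960 and AT5G64550, at -1.29 and -1.27. The highest adjusted p of any of the 16 in the 4 limma fits was 0.0435. Among those not yet described, AT5G39850 had 136.6 in Col-0 against 628.6 in rh10-1 and 269.2 in as2-1 against 665.6 in the double mutant. AT5G59240 had 105.0, 135.2, 514.5 and 351.2, and AT3G12860 had 115.0, 179.0, 405.6 and 475.5. AT1G23410 had 306.6, 411.4, 863.5 and 921.7, AT3G46600 had 62.4, 101.2, 235.6 and 253.2, and AT2G30930 had 79.6, 78.4, 184.3 and 352.4. In all 6 the rh10-1 arrays were both above the others (23.0% of all genes kept), an order that their choice nearly fixes. AT2G30930 was the only one of the 6 with the larger ratio in the as2-1 background.

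The lowest adjusted p-values of the limma fit as designed included genes whose pairs differed in size. AT5G19120 had the lowest of the higher genes (6.87e-20), and its limma adjusted p was 0.00737 without the trend, 0.00749 with all 8 arrays and 0.13 without the background term. AT1G49500, also among the 5 lowest, had signals of 51.3, 418.9, 413.6 and 830.9, so that the log2 ratio was 3.01 in the Col-0 pair and 0.99 in the as2-1 pair, and its limma adjusted p was 0.0426 without the trend, 0.072 with all 8 arrays and 0.2 without the background term. The lower gene with the lowest p was AT1G22160, which had 488.2 in Col-0 against 60.3 in rh10-1 but 112.2 in as2-1 against 84.5 in the double mutant, with a mean log2 ratio of -1.71 ± 1.84 (n = 2 pairs). AT1G68600 had a similar order of signals, 397.4, 116.7, 97.1 and 69.9. In both the Col-0 array stood apart from the other 3. The limma adjusted p without the trend, without the background term and with all 8 arrays was 0.141, 0.139 and 0.276 for AT1G22160. For AT1G68600 it was 0.0762, 0.159 and 0.152 in the same order. FDH, formate dehydrogenase, was among the 5 lower genes with the lowest p, with 299.4 and 273.2 without rh10-1 and 78.9 and 139.4 with it. Its limma adjusted p was 1.77e-07 as designed, 0.0427 without the trend, 0.0425 without the background term and 0.0658 with all 8 arrays.

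The genes of ribosome biogenesis, the process in which RH10 acts, were measured higher with rh10-1 in both pairs. The list held 46 genes, 18 of which could be named on the array, and all 18 had a log2 ratio above 0 in both pairs, which 29.6% of all genes kept did. The median log2 ratio of the list was 0.93 in the Col-0 pair and 0.41 in the as2-1 pair, beside -0.06 and 0.02 over all genes kept. The sum of the 18 signals was 10954.5 in Col-0 against 21898.5 in rh10-1 and 14943.6 in as2-1 against 20357.0 in the double mutant. Both rh10-1 arrays were above both others in 16 of the 18, all but RH57 (AT3G09720) and AT5G38720, beside 23.0% of all genes kept. The as2-1 array was above the Col-0 array in all 18, with a median log2 ratio of 0.46, beside -0.04 over all genes kept. The Col-0 pair had the larger rh10-1 ratio in 17, and over all genes kept its ratio was the larger in size in 63.1%. Of the 18 genes, 4 passed 1.5-fold in both pairs (YAO, AT5G62440, AT5G41190 and AT3G22660, beside 2.87% of all genes) and 8 were called by limma as designed (those 4, PRH75, AT3G05060, AT1G52930 and AT3G03920, beside 2.81% of all genes), while 0 were called without the trend, without the background term or with all 8 arrays. The list contains RH10 itself and was chosen with earlier results of these data known.

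RH10 (AT5G60990) had signals of 352.2 in Col-0 against 677.1 in rh10-1 and 439.1 in as2-1 against 553.8 in the double mutant. Its transcript was therefore not lower with the missense allele, with log2 ratios of 0.94 and 0.33, and its limma adjusted p was 0.0754. YAO, a nucleolar WD-repeat protein, had 246.8 and 315.5 without rh10-1 and 559.1 and 496.9 with it (log2 1.18 and 0.66). PRH75, another DEAD-box RNA helicase, had 974.8, 1114.3, 1939.6 and 1554.0. NRPA1 and NRPA2, the large subunits of RNA polymerase I, had 204.3 and 301.0 against 358.2 and 399.5 and had 377.6 and 508.6 against 722.3 and 651.5, respectively. PES (AT5G14520), whose yeast and animal counterparts act in maturation of the large ribosomal subunit, had 1320.9 and 1883.0 without rh10-1 and 2519.3 and 2503.2 with it. NOB1 (AT5G41190), the counterpart of a yeast nuclease of small-subunit maturation, had 371.5 and 531.4 against 623.0 and 837.9. The largest mean ratio of the list was that of AT3G22660, with 305.3, 469.2, 882.5 and 739.2, and the smallest was that of AT3G15460, with 332.7, 392.5, 431.3 and 495.5. The ratios were thus larger in the Col-0 background for most members, while both rh10-1 arrays were above the others in 16 of them (23.0% of all genes kept).

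**Figure D3:**
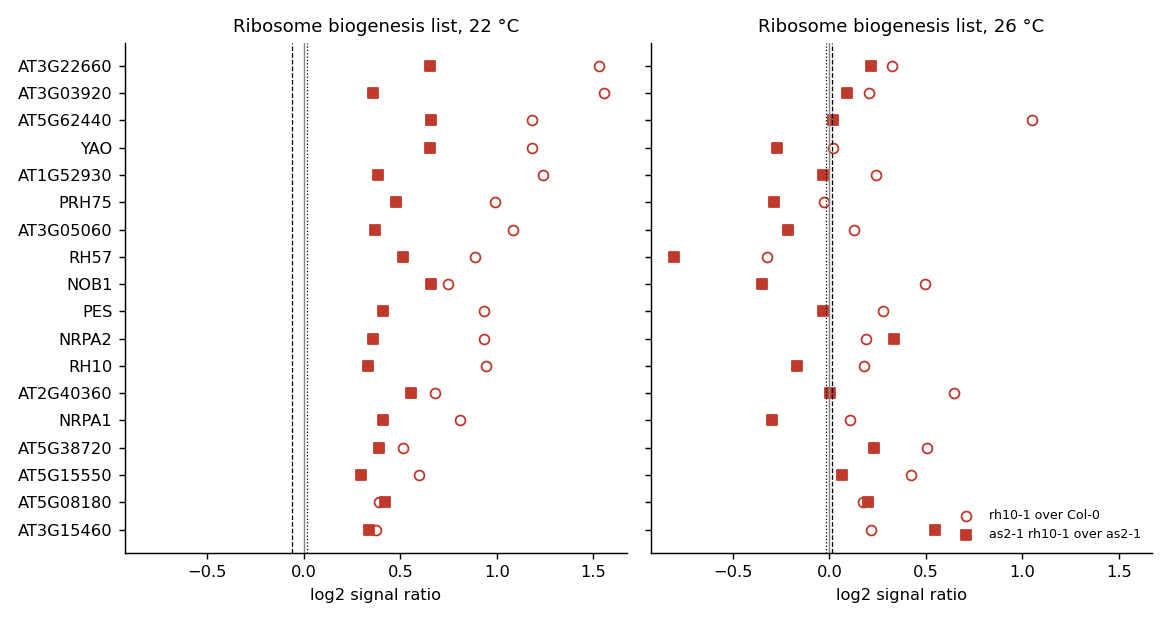
Log2 signal ratios (x axis) of the 18 measured ribosome biogenesis genes with rh10-1 at 22°C (left) and 26°C (right). Open circles are rh10-1 over Col-0, filled squares as2-1 rh10-1 over as2-1, and the dashed and dotted lines are the medians of all genes kept for these pairs; at 22°C all points lie above 0 and at 26°C the squares scatter on both sides, with a median of -0.02.

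On the 26°C arrays the medians of the same 18 genes were 0.21 in the Col-0 pair and -0.02 in the as2-1 pair. At that temperature 9 were above 0 in both pairs (30.3% of all genes kept) and 2 were below 0 in both (30.6%). The mean ratio was larger at 22°C than at 26°C in 17 of the 18, a count for which the share over all genes was not taken. None passed limma's test of the temperature difference, the lowest adjusted p being 0.16.

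The cell wall genes went in both directions. Of 15 expansin and xyloglucan enzyme genes kept, 4 passed 1.5-fold higher in both pairs (EXLA1, XTH18, XTH19 and EXGT-A3, beside 2.87% of all genes) and 0 passed it lower in both (2.81%). Of the 4, all but EXGT-A3 were kept only through arrays with rh10-1. The median ratios were 0.00 and 0.17, and the median of the members' means was -0.17. EXGT-A3, a xyloglucan endotransglucosylase also known as XTH27, had 221.7 in Col-0 against 363.2 in rh10-1 and 268.6 in as2-1 against 586.4 in the double mutant. Its limma adjusted p was 0.00362 as designed, but 0.144 without the trend, 0.108 without the background term and 0.152 with all 8 arrays. EXLA2 had 101.5 and 83.9 without rh10-1 and 137.8 and 224.3 with it. The classical expansin EXPA4, which loosens walls during growth, had the lowest mean ratio of the family, with 1121.4, 736.0, 639.9 and 535.7. Of the 14 kept genes of the cell wall and tubulin list, 2 passed 1.5-fold higher in both pairs (2.87% of all genes), and the medians were -0.14 and 0.08. The 2 were again EXLA1 and XTH18, kept only through arrays with rh10-1, so nothing is read from this count. Both signals of XTH18 in the as2-1 pair were under the 20th percentile of their arrays.

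Of the other jacalin lectins, JAL22 had 662.6 in Col-0 against 335.6 in rh10-1 and 615.8 in as2-1 against 313.2 in the double mutant, with log2 ratios of -0.98 in both pairs. Its limma adjusted p was 0.00137 as designed and 0.0439 without the background term, but 0.114 without the trend and 0.228 with all 8 arrays. JAL33 had 186.1, 291.8, 118.4 and 219.9, and JAL34 had 346.1, 440.8, 274.1 and 388.5. In these last 2 the order of the arms was crossed by the difference between backgrounds. All 6 kept glucosinolate genes were below 0 in both pairs (32.5% of all genes), with medians of -0.27 and -0.39, but 0 passed 1.5-fold in both pairs and 0 were called. BCAT4, an aminotransferase of methionine chain elongation, had the lowest mean of them, with 3749.3, 4232.4, 2944.8 and 2863.2, and GTR2, a glucosinolate transporter, the highest, with 292.2, 285.2, 258.6 and 255.9.

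Among 10 kept cytochrome P450 genes, 8 were below 0 in both pairs (32.5% of all genes), with medians of -0.57 and -0.28. Limma as designed called 2 lower (CYP78A9 and CYP71B22, beside 2.0%), and 2, CYP78A9 and CYP71B37, passed 1.5-fold lower in both (2.81%). None of the 10 was called in all 4 limma fits. For CYP78A9 the limma adjusted p was 0.0579 without the trend, 0.0918 without the background term and 0.331 with all 8 arrays. The lowest mean was that of CYP71B22, with 96.0 in Col-0 against 5.3 in rh10-1 and 32.4 in as2-1 against 25.5 in the double mutant. Its log2 ratios were -4.18 and -0.35, a mean of -2.26 ± 2.71 (mean ± SD, n = 2 pairs), and its rh10-1 signal was under the 20th percentile of that array. The highest mean was that of CYP71B26, with 147.9, 112.9, 108.7 and 168.5. Of 22 glycosyltransferases, 10 were below 0 in both pairs (32.5% of all genes), 2 were called lower (2.0%) and the medians were -0.20 and -0.18. Those called were UGT74D1 (380.3, 375.3, 259.7 and 197.7), which had the lowest mean of the family, and UGT78D1 (989.9, 1057.1, 657.3 and 581.4), a flavonol rhamnosyltransferase. Neither was called in all 4 limma fits. The 5 kept flavonoid and anthocyanin genes had medians of -0.11 and -0.62. DFR, dihydroflavonol reductase, had 3122.9 and 3452.6 without rh10-1 and 2342.0 and 2308.6 with it, AT5MAT had 266.4, 403.1, 266.9 and 293.7, and 0 of the 5 were called.

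For the 7 kept photosynthesis genes the median ratio was -0.42 in the Col-0 pair and 0.41 in the as2-1 pair. LHCB4.2, a protein of the photosystem II antenna, had 2930.2 in Col-0 and 1531.4 in rh10-1, but 1863.2 in as2-1 and 3377.9 in as2-1 rh10-1. PSAN, a subunit of photosystem I, showed the same crossing with 3004.5 and 1865.8, then 2272.1 and 3626.4. LHCB4.3 alone was lower in both pairs, with 376.4 and 389.8 against 237.9 and 211.1. Its limma adjusted p was 0.0204 as designed, but 0.19 without the trend, 0.0978 without the background term and 0.208 with all 8 arrays. RCA, Rubisco activase, was the only one above 0 in both, with 7119.9 and 6936.2 against 8650.7 and 9245.0. The 5 members found by photosystem or antenna in their names had medians of -0.34 and 0.39.

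Of the 5 kept cold and abscisic acid genes, STZ, a zinc finger repressor induced by stress, had 14 in Col-0 against 208.9 in rh10-1 and 60.5 in as2-1 against 84.6 in the double mutant, and COR15A had 553.1, 344.9, 186.7 and 308.5. Limma as designed called STZ higher and COR15A lower (2.81% and 2.0% of all genes), but neither was called in all 4 limma fits. In both the ratio of the Col-0 pair was the larger in size (3.90 and -1.57, beside 0.48 and -0.16). Their mean log2 ratios were 2.19 ± 2.42 and -0.86 ± 0.99 (mean ± SD, n = 2 pairs), and the Col-0 signal of STZ was under the 40th percentile. The list had medians of -0.56 and -0.06. The 6 kept auxin genes had medians of -0.24 and -0.04 with 0 called. Their highest mean was that of YUC2, an enzyme of auxin synthesis, with 46.9, 58.2, 58.8 and 66.1, and their lowest that of HAT2, with 137.4, 150.4, 115.7 and 113.3. Of a list of 20 floral transition genes only 1 could be named on the array, AGL24, a MADS-box promoter of flowering, described after its value was seen. It had 352.6 in Col-0 against 169.2 in rh10-1 and 204.3 in as2-1 against 138.7 in the double mutant. Its limma adjusted p was 0.0161 as designed, and it was not among the genes called in all 4 limma fits. Of a list of 37 leaf polarity and KNOX genes, only 5 could be named on the array and 4 were kept, so most of the list was not read here. Of these 4, YAB5 had 89.9, 182.9, 93.6 and 245.8, and PHV had 494.2, 335.3, 293.1 and 326.6. YAB3 had 465.5, 443.5, 462.2 and 508.1, and AGO7 had 62.9, 79.9, 77.3 and 65.4. None of these was called, and the signal of YAB5 was higher in both as2-1 genotypes.

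With the line at 1.5-fold in both pairs, 228 genes were higher (2.87%) and 223 lower (2.81%). Of these, 32 and 31 carry a symbol, and those named here were chosen after their values were seen. Limma called 16 of the 32 and 18 of the 31 (2.81% and 2.0% of all genes), on the same 4 arrays and ratios that chose them, so that nothing is read from these counts. HLL, a mitochondrial ribosomal protein needed for ovule growth, had 280.4 in Col-0 against 604.5 in rh10-1 and 311.9 in as2-1 against 471.0 in the double mutant. OTP81, an organelle RNA-processing protein, had 90.5 and 130.8 against 215.8 and 207.0. THE1, a receptor kinase that monitors the state of the cell wall, had 144.5 and 183.2 against 295.1 and 336.3, and RALFL33, of the RALF family of signalling peptides, had 350.0 and 349.9 against 603.7 and 550.7. TET8, a tetraspanin of the plasma membrane, had 291.8 and 289.9 without rh10-1 and 572.2 and 582.0 with it. BZIP53, a bZIP factor linked to energy starvation and seed maturation, had 536.3 and 700.2 against 941.6 and 1199.7, and DI21, named for its induction by drought, had 809.0 and 704.4 against 1321.8 and 1225.0. In each of these the 2 arms did not overlap, an order that the choice favours and that 23.0% of all genes kept had.

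Among the lower genes of this kind, SIM, an inhibitor of cyclin-dependent kinases that promotes endoreduplication, had 175.4 in Col-0 against 57.4 in rh10-1 and 214.2 in as2-1 against 128.8 in the double mutant. The cell division genes AUR1, AUR2 and PRL, in the same list, had log2 ratios of -0.48 to -0.03 and were not called. LHW, a bHLH factor of vascular development, had 542.9 and 340.4 against 287.1 and 205.8. PDC2, pyruvate decarboxylase, had 522.2 and 393.0 against 266.4 and 244.1, APL3, a subunit of ADP-glucose pyrophosphorylase in starch synthesis, had 219.5 and 171.4 against 129.2 and 78.1, and APS4, an ATP sulfurylase, had 247.0 and 186.3 against 103.3 and 112.8. PMEAMT, a methyltransferase of choline synthesis, had 935.2, 1214.8, 511.0 and 770.5. RALFL31, a RALF-like peptide gene, had 275.8 and 243.6 without rh10-1 and 101.2 and 125.0 with it, opposite in direction to RALFL33.

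The genes in opposite directions had signals that crossed between the backgrounds. AT3G49160 had 114.6 in Col-0 and 34.8 in rh10-1, but 30.2 in as2-1 and 102.4 in as2-1 rh10-1. ATBRXL2, of the BREVIS RADIX-like family, had 96.9 and 46.9, then 43.5 and 87.6. AT1G09470 had 84.5 and 19.6, then 13.8 and 31.3, and AT2G25200 had 35.4 and 12.1, then 38.3 and 76.8. AT3G61920 went the other way, with 40.7 and 85.7 in the Col-0 pair and 55.3 and 25.9 in the as2-1 pair. These were the 5 of the 21 that met the signal conditions, and their difference between backgrounds could not be tested, since it is the only residual.

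The 26°C arrays, which took no part in choosing the genes and share no array with the 22°C pairs, served as a second reading. Of the 56 genes higher in both pairs at 22°C, 31 (55.4%) were above 0 in both pairs at 26°C, 6 were below 0 in both and 17 were at least 2-fold higher in both. Over all 7943 genes, 30.3% were above 0 in both pairs and 1.26% at least 2-fold higher in both. The median log2 ratios of the 56 at 26°C were 0.81 in the Col-0 pair and 0.71 in the as2-1 pair, beside 0.01 and -0.02 over all genes. Of the 38 lower genes, 13 (34.2%) were below 0 in both pairs at 26°C, against 30.6% of all genes, 10 were above 0 in both, and 2 were at least 2-fold lower in both (1.32% of all genes). Their medians at 26°C were -0.35 and 0.24. For the higher genes the share with the same direction at 26°C was above that of all genes, and for the lower genes it was near it.

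**Figure D4:**
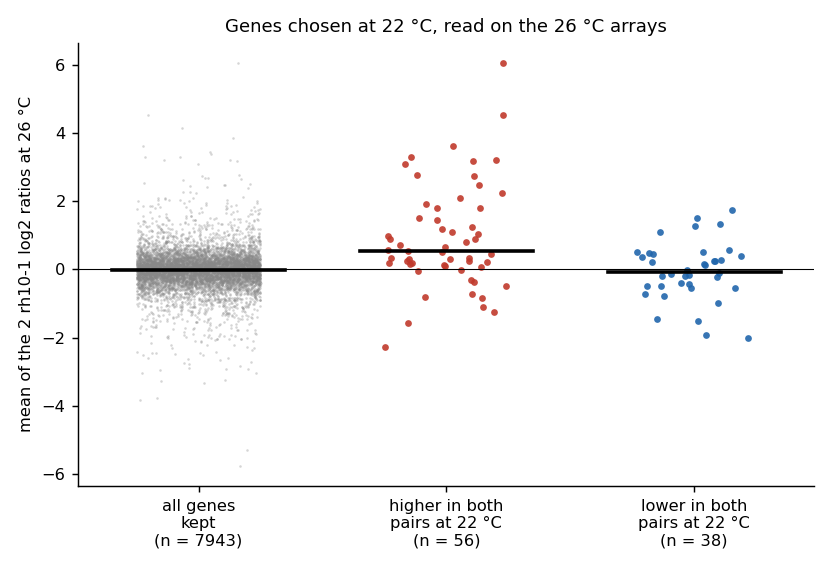
Mean of the 2 rh10-1 log2 signal ratios at 26°C (y axis), 1 point per gene, for all 7943 genes kept and for the genes 2-fold or more higher or lower in both pairs at 22°C, with the median as a bar. The median is 0.56 for the 56 higher genes, -0.07 for the 38 lower genes and -0.002 for all genes.

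AT5G60250 had log2 ratios of 2.36 and 2.61 at 26°C, beside 3.07 and 2.97 at 22°C. AT1G24095, AT2G18190 and AT1G67760 were likewise above 1.9 in the mean of the pairs at 26°C, with 3.28, 3.18 and 1.91. BZIP61 had log2 ratios of -1.01 and -3.52 at 26°C, and the test of the difference between temperatures, made by limma over 8399 genes and all 8 arrays, gave an adjusted p of 0.0322. That test called 22 genes with a larger rh10-1 ratio at 22°C (0.262%) and 25 with a smaller one (0.298%), and 6 of the 56 and 1 of the 38 were among them. These were chosen for large ratios at 22°C, which that test also uses, so a larger ratio at 22°C is favoured by the choice. The 6 were BZIP61, EXLA1, AT5G08600, AT5G19120, AT2G30930 and AT2G03130, the last of which had a larger ratio at 26°C (6.05 in the mean of the pairs). The 1 was AT1G19960, with log2 ratios of -1.44 and -1.14 at 22°C and a mean of 1.74 at 26°C (adjusted p = 0.00574). Without the intensity trend the same limma test called 0 genes in either direction, with 985 at an unadjusted p under 0.05.

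The genes past 2-fold in both pairs lay on all 5 chromosomes. The 56 higher genes comprised 12 on chromosome 1, 12 on chromosome 2, 11 on chromosome 3, 9 on chromosome 4 and 12 on chromosome 5, which is 0.581% to 1.07% of the genes kept on each. The 38 lower genes were 0.321% to 0.711% of them. Of the 65 plastid genes kept, 0 passed 2-fold in both pairs. Among the 100 kept genes nearest to RH10 on chromosome 5, 50 on each side in the order of the RefSeq table, 3 were higher in both pairs and 0 lower. The 3 were AT5G60800, AT5G60250 and AT5G59240, at places 7, 18 and 47 from RH10.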

How the data were processed

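The authors used the 3′ IVT Express labelling kit, hybridised 1 ATH1 array per genotype and temperature and computed signals with the GCOS software. The deposited values are linear intensity signals. Their mean after trimming 2% of probe sets at each end was 198.1 to 198.2 on the 22°C arrays, so the arrays had been scaled, and no further scaling was applied. A signal listed at 0 (3 on the 4 arrays) was set to 0.1 before log2.

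Probe sets with exactly 1 gene in the platform table (13513 of 22746), not ending in _s_at or _x_at, were used. For 145 genes with several, the one with the highest mean was taken. Symbols came from RefSeq (TAIR10.1). Of the 13074 genes, 1548 carry a symbol. Detection calls were not used here. Ratios at exactly a threshold count as past it.

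Limma 3.58.1 in R 4.3.3 used eBayes with an intensity trend and Benjamini-Hochberg adjustment, 2-sided. The fit of the 4 arrays had AS2 background and rh10-1 as terms. The fit of 8 arrays added temperature and its interactions with as2-1 and rh10-1. Gene lists came from knowledge of the gene families, and their membership was checked only for valid AGI codes. Lists were described by counts and medians, with no set test, where 5 or more members were kept. Genes named singly were the first 12 each way by the smaller log2 ratio, up to 4 each way in opposite directions, the 5 lowest adjusted p each way, the extremes of each list, the genes the study discusses, those nearest the 2-fold line, and those said to be chosen later. The members and lists were chosen with earlier results of these data known. A planned promoter search was not run. The procedures were tested on simulated data, with noise drawn from the variance of the 4-array limma fit. There 24 of 100 genes set to a 2-fold change and 26 of 7743 unchanged genes passed 2-fold in both pairs. The test of the temperature difference called 21 of 100 set to a 2-fold change. Since the noise came from the same fit, these counts do not measure the error of the real arrays. Python 3.11.15 with pandas 2.3.3 and matplotlib 3.10.9 was used otherwise. Alternatives are given in the closing section.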

Additional observations from a re-analysis of the deposited data

Results flagged for a closer look

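In 5 genes that met the signal conditions the rh10-1 ratio passed 2-fold in opposite directions in the Col-0 and as2-1 backgrounds. The log2 ratio in the as2-1 pair less that in the Col-0 pair was 3.48 for AT3G49160, 3.29 for AT1G09470, 2.55 for AT2G25200, 2.06 for ATBRXL2 and -2.17 for AT3G61920. For UGT85A7, a glycosyltransferase with signals of 9.1 in Col-0 against 52.9 in rh10-1 and 51.3 in as2-1 against 27.4 in the double mutant, whose ratios passed 1.5-fold in opposite directions, it was -3.44. LHCB4.2 and PSAN also passed 1.5-fold in opposite directions, but with the higher ratio in the as2-1 pair, and their differences were 1.79 and 1.36. These differences between backgrounds were not tested.

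In 9 of the genes described, limma's fit of all 8 arrays found that the rh10-1 effect differed between 22°C and 26°C. The log2 effect at 22°C less that at 26°C was 4.28 for EXLA1 (adjusted p = 0.0163), 3.83 for BZIP61 (0.0322), 2.41 for AT2G30930 (0.0291), 2.34 for AT5G19120 (0.0322), 2.13 for AT5G08600 (0.0322), 1.78 for THE1 (0.0275), -2.26 for FDH (0.0322), -3.34 for AT2G03130 (0.0437) and -3.03 for AT1G19960 (0.00574). Most of these genes were chosen for large ratios at 22°C, which favours a difference. The calls were lost without the intensity trend and without any 1 of the 22°C arrays.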

How the results depend on the processing

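No paired analysis by replicate number was possible because the labels give 1 array per genotype and temperature and no replicate number. The precision is limited by the number of arrays, and low signals near background decide many ratios. The counts of genes higher, lower and opposite at 2-fold in both pairs (56, 38 and 21) were 410, 364 and 675 with no filter, 31, 13 and 4 with a filter on the mean signal, 90, 85 and 34 over all _at probe sets, named or not, 228, 223 and 113 at 1.5-fold, and 17, 8 and 6 at 3-fold. Quantile normalization gave 57 and 36 higher and lower genes, of which 52 and 34 were the same genes, and median centring gave 62 and 33, of which 56 and 32 were. Median centring moved the median of all genes in the Col-0 pair from -0.06 to 0.07.

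The limma counts of genes higher and lower (223 and 159) were 121 and 72 with no filter, 421 and 350 over all _at probe sets, 50 and 35 without the trend, 25 and 10 without the background term, 21 and 4 with all 8 arrays, 14 and 2 in all 4 of these fits (an alternative chosen after seeing the data) and 0 to 0 when any 1 of the 22°C arrays was left out of the limma fit of all 8 (328 to 1114 genes at an unadjusted p under 0.05). Higher genes were 58.4% of those called, 70.0% under median centring, 71.4% without the background term and 84.0% with all 8 arrays. For the 22°C against 26°C difference (22 and 25) the counts were 0 and 0 without the trend, 14 and 12 with quantile normalization, and 0 to 270 in each direction when 1 array was left out: 0 without any 1 of the 22°C arrays (610 to 1134 at an unadjusted p under 0.05), and 89 to 270 without 1 of the 26°C arrays. The causes were not tested.

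Medians of the members' mean log2 ratios changed sign for photosynthesis genes (-0.01; 0.058 with median centring, 0.41 in the as2-1 pair), the photosystem and antenna genes (0.02; -0.052 with quantile normalization, -0.34 in the Col-0 pair), cell wall and tubulin genes (-0.07; 0.081 in the as2-1 pair) and expansin and xyloglucan enzyme genes (-0.17; 0.0047 and 0.17 in the pairs). They moved for glycosyltransferases (-0.36; -0.32 with quantile normalization, -0.29 with median centring, -0.20 and -0.18 in the pairs), flavonoid genes (-0.47; -0.11 in the Col-0 pair) and glucosinolate genes (-0.43; -0.27 in the Col-0 pair). That of the ribosome biogenesis genes was 0.69 and kept its sign in all 5 alternatives. Of 64 named genes followed in this way, 57 stayed within their spread under quantile normalization, 55 under median centring and 63 with a floor at the 20th percentile, and AT5G01530 changed sign under quantile normalization, to -0.012.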
